A study of Mus musculus with 26 samples.

Results

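Ediff cells were compared with EryCP cells of the mouse line EML on 6 arrays, 3 per group, out of the 26 arrays of a study of lineage commitment in blood cell formation. The groups were taken from the sample labels: Ediff cells lacked CD34 and cKit on collection and derived from EryCP cells that had differentiated under erythropoietin (Epo), and EryCP repeat is the EryCP fraction measured again on the arrays that carry Ediff. EML is a progenitor line with erythroid, myeloid and lymphoid potential, and per the labels all these cells came from cultures with horse serum and medium conditioned with stem cell factor. The line is immortalised and was sorted into fractions, and the dose of Epo, the days in Epo and the gate cutoffs are not given here by any source used. Epo, time in culture and the collection of CD34-negative, cKit-negative cells therefore cannot be told apart between the groups. A second pair of groups, 3 arrays of CD34- CD103- cells after Epo (CD34- CD103- Epo) and 4 arrays of CD34- CD103- cells, was used at the end to set the change in Ediff beside another exposure of EML cells to Epo. The sample titles of this second pair begin with EMLe2, and those of Ediff and EryCP repeat begin with EML.

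Red cell precursors take up iron through the transferrin receptor, build heme in a chain of enzymes that starts with Alas2 in mitochondria, and join it to globin chains. Epo acts through its receptor Epor and the kinase Jak2 on the transcription factor Stat5, while Gata1, Klf1, Tal1 and Zfpm1 form the core of the erythroid transcription programme and Gata2, Kit and Myb mark the earlier progenitor. Maturing erythroblasts also build a spectrin and ankyrin skeleton under the membrane, place blood group proteins and transporters in it, and lose proteins of the leukocyte surface and cytoskeleton.

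Each array was read in 1 colour. A level is given here as the log2 processed signal of a gene minus the 75th percentile of the same array. A level of 0 is thus the signal exceeded by 25% of the spots, control spots left out. A difference is Ediff minus EryCP repeat on this log2 scale, with its standard error, and a gene was called when limma's adjusted p lay under 0.05. The labels do not say whether the samples within a group are separate cultures, so the p-values measure only the spread between these samples, which may be technical. In bulk RNA, fewer cells of a type and less RNA of a gene per cell cannot be told apart, and this holds for every result here. The 75th percentile of the signal was 460.9, 437.3 and 425.3 units on the Ediff arrays, against 598.6, 704.2 and 604.1 units on the EryCP repeat arrays. Of the non-control spots, between 76.2% and 79.9% were well above background on an Ediff array. On an EryCP repeat array the range was 76.2% to 82.6%. Arrays of a group correlated over the probes tested with r between 0.985 and 0.996 in Ediff and between 0.992 and 0.995 in EryCP repeat. Between the groups r lay between 0.91 and 0.932.

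Of 24705 genes tested, 13982 were called, which is 56.6%, with 9822 higher in Ediff (39.8%) and 4160 lower (16.8%). Without EryCP repeat replicate 1, 6394 genes were called higher. With another background correction, normexp, 235 genes were called, 57 higher and 178 lower, all of them among the 13982 and in the same direction. The direction of small differences rested on the scaling. RNA of known amount that was added to each sample gave a mean log2 signal of 12.15, 11.99 and 11.91 on the Ediff arrays, against 11.55, 11.59 and 11.66 on the EryCP repeat arrays, whereas the 75th percentile ran the other way. The median difference of all genes was 0.45 with 75th percentile scaling and -0.49 with spike-in scaling, and 70.2% of the called genes were higher under the first, against 8.71% under the second. Under 5 scalings (75th percentile, spike-in RNA, quantile normalization, the median of the genes tested, and the authors' deposited table), 1048 genes were called higher each time (4.24% of those tested) and 4084 were called lower each time (16.5%). These are the genes described below as higher or lower under all 5 scalings. Because spike-in scaling moved all genes downward, far fewer rises than falls met this condition, so counts under all 5 scalings are given beside the counts called with 75th percentile scaling. The counts of each gene list below are to be read beside these shares of all genes. Where every array of 1 group failed the background test, a gene is given a bound (at least so many fold), which holds for the processed signals. In the authors' deposited table each gene named here with such a bound differed by less than the bound, and with normexp none of them was called. A gene near 0 with 75th percentile scaling was lower with spike-in scaling, as for the common actin Actb (0.02 ± 0.09 and -0.92), and a gene said not to pass the test is one not called with 75th percentile scaling. With 75th percentile scaling, 605 genes were called at least 4-fold higher and 1107 at least 4-fold lower, and 18 and 45 genes passed 100-fold. These counts take the processed signals as they stand, also for genes that failed the background test on every array of 1 group. Among all called genes, 77 higher and 280 lower were of that kind, and their sizes rest on signals near background. The 3 values of each group did not overlap for 63.3% of the genes tested. Each slide held both groups, in unequal numbers, and 99.9% of the called genes had the same sign on both slides. These genes were called on the same arrays, which favours equal signs, so the share is no separate check of the calls.

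**Figure D1:**
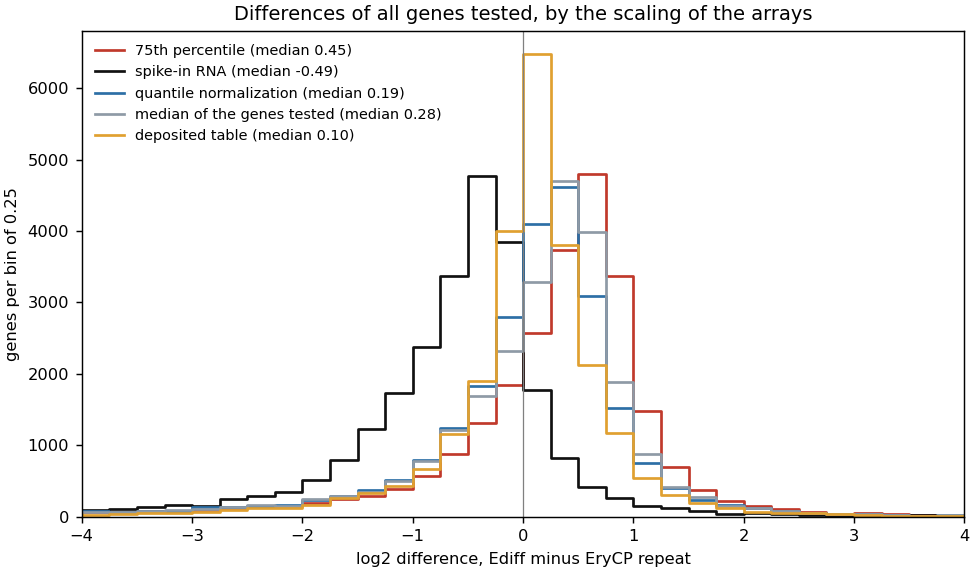
Number of genes (vertical axis, per bin of 0.25) against their log2 difference, Ediff minus EryCP repeat (horizontal axis, cropped at -4 and 4), with 1 line for each of the 5 scalings of the same 6 arrays. The peak lies right of 0 with 75th percentile scaling (median 0.45) and left of 0 with spike-in scaling (median -0.49), with the other scalings between them.

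Levels of 4 markers are given first, and all followed the cell labels. They were chosen with earlier results of these data known, so they are a description and not a check of the labels. Hba-x, the embryonic alpha-like globin, had levels of 5.59, 5.60 and 5.60 on the Ediff arrays, against -5.72, -4.58 and -5.00 on the EryCP repeat arrays. Slc4a1, the anion exchanger band 3 of the red cell membrane, stood at 7.03, 6.82 and 6.75 in Ediff and at -2.96, -2.52 and -3.15 in EryCP repeat. Alas2, the erythroid enzyme for the first step of heme synthesis, had levels of 7.42, 7.30 and 7.33 in Ediff and of 0.30, 0.20 and 0.09 in EryCP repeat. All 3 genes were high on every Ediff array and the groups lay far apart, with differences of 10.70 ± 0.28 for Hba-x (adjusted p = 3.28e-06), 9.74 ± 0.19 for Slc4a1 and 7.15 ± 0.10 for Alas2. Cpa3, a carboxypeptidase of mast cell granules that marks the progenitor side, ran the other way, with -1.74, -1.03 and -1.37 in Ediff against 7.45, 7.47 and 7.22 in EryCP repeat. It fell by 8.76 ± 0.20 (adjusted p = 2.01e-06), with no overlap between the groups. Within the slides the differences were 10.17 and 10.96 for Hba-x, 9.41 and 9.87 for Slc4a1, and -9.02 and -8.37 for Cpa3.

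The start regions of 3 of these genes are shown because they carry opposite changes and because motifs bound by GATA factors (GATAA, or TTATC on the other strand) and by Klf1 and its relatives (CACCC, or GGGTG) are well known at erythroid genes. Each sequence runs 5′ to 3′ on the strand of the gene, from 250 bases before the annotated start to 50 after it, from RefSeq (GRCm38.p6), with both motifs in capitals. Hba-x lies at chr11:32276350-32276649 (plus strand), Alas2 at chrX:150547167-150547466 (plus strand) and Cpa3 at chr3:20242132-20242431 (minus strand), and the table used here held no entry for Slc4a1.
Hba-x: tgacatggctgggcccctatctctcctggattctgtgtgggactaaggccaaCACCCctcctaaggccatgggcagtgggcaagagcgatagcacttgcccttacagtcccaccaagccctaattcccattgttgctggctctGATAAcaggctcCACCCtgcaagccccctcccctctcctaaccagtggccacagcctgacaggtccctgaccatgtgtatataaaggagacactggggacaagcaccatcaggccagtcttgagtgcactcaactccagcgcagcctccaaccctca
Alas2: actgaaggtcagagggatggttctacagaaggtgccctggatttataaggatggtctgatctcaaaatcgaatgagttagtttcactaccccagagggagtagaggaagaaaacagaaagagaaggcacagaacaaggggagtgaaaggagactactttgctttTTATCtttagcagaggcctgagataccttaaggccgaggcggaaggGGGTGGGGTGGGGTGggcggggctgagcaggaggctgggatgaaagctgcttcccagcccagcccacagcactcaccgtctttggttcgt
Cpa3: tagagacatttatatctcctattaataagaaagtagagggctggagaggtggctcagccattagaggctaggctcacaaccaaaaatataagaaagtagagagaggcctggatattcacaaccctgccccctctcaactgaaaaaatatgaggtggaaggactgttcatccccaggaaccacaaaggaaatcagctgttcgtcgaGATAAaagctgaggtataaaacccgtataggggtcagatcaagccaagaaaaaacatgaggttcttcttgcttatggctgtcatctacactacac
The window of Hba-x held 1 GATAA and 2 CACCC matches, that of Alas2 1 and 3, of which the 3 CACCC matches adjoin each other, and that of Cpa3 1 and 0. Matches to letters are a description and not sites. Of the 15810 start regions of tested genes, 19.5% held GATAA on either strand, 61.7% held CACCC and 10.6% held both. For the next sets the 4-fold limit was set with 75th percentile scaling, and only the call had to hold under all 5 scalings. Genes higher under all 5 scalings and at least 4-fold higher in Ediff had 403 start regions, with shares of 22.3%, 71.7% and 16.1%. The 855 start regions of genes lower under all 5 scalings and at least 4-fold lower had 19.6%, 67.7% and 10.8%. The 40 start regions of globin, heme, skeleton and surface genes that were higher under all 5 scalings had shares of 40%, 72.5% and 32.5%, and the 31 start regions of mast cell genes that were lower under all 5 scalings had 41.9%, 48.4% and 22.6%.

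**Figure D2:**
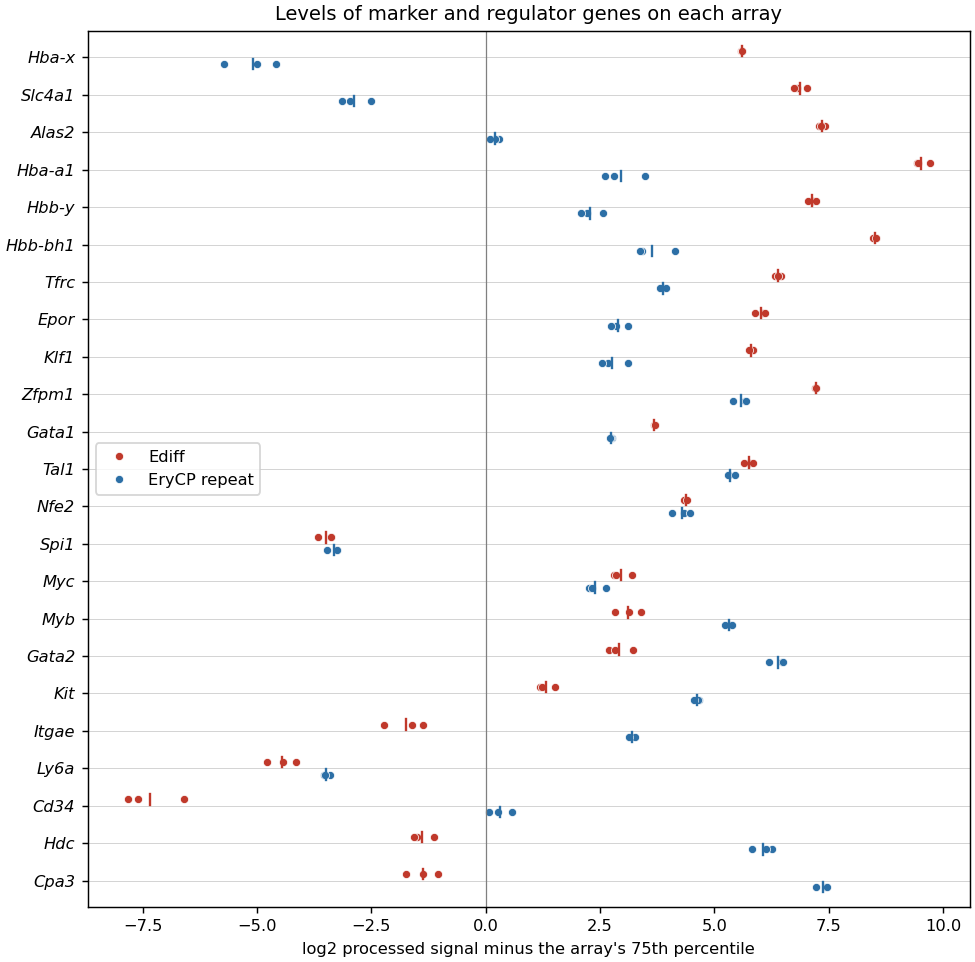
Levels of 23 genes (rows) on each array, as log2 processed signal minus the 75th percentile of the array (horizontal axis). Points are the 3 arrays of a group, Ediff above and EryCP repeat below in each row, and ticks are group means. The groups overlap for Nfe2 and Spi1 and are apart for the other genes shown.

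All 7 globin genes tested were higher in Ediff under all 5 scalings, out of 8 on the array. Hba-a1, the adult alpha chain, had levels of 9.43, 9.71 and 9.45 in Ediff and of 2.80, 2.60 and 3.49 in EryCP repeat, and rose by 6.56 ± 0.25 (adjusted p = 9.13e-06). Its near-identical copy Hba-a2 was not tested, and the probe may also take up its RNA. The embryonic beta-like chains Hbb-bh1 and Hbb-y rose by 4.88 ± 0.22 and 4.85 ± 0.15, and their levels in Ediff, 8.47 to 8.54 and 7.05 to 7.23, lay above every EryCP repeat array, where they were 3.36 to 4.14 and 2.09 to 2.57. The theta-like gene Hbq1b rose by 3.83 ± 0.20 and the adult beta gene Hbb-bt by 2.21 ± 0.19, the smallest rise on the list. The median of the 7 differences was 4.85, against 0.45 for all genes tested. In EryCP repeat, Hbb-bt, Hbb-bh1, Hba-a1 and Hbb-y already stood above the 75th percentile of the arrays, while Hba-x and Hbq1b stood below it.

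Genes beside the globins were taken by position on the chromosome, not by value. At the alpha locus the housekeeping gene Nprl3, which holds the distal enhancers of the alpha globin genes in its introns, differed by 1.01 ± 0.09 and Mpg, a DNA repair glycosylase, by 1.54 ± 0.11. Mpg was higher under all 5 scalings, while Nprl3, Rhbdf1 (1.01 ± 0.12) and Snrnp25 (1.04 ± 0.11) were not. Cpeb4, an mRNA-binding regulator of translation at the outer edge, rose by 3.41 ± 0.20. On the far side of the globins, Ubtd2 and the lymphocyte kinase gene Stk10 were lower under all 5 scalings, at -2.19 ± 0.25 and -2.51 ± 0.13. The other tested neighbours outside the globin family did not pass the test. They were 4930524B15Rik (0.45 ± 0.20), Il9r (0.72 ± 0.28), Sh3pxd2b (0.575 ± 0.22) and Efcab9 (-0.41 ± 0.27). The beta globins sit among olfactory receptor genes, and the 11 of these that were tested differed by 0.48 to 1.53, with none higher under all 5 scalings.

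**Figure D3:**
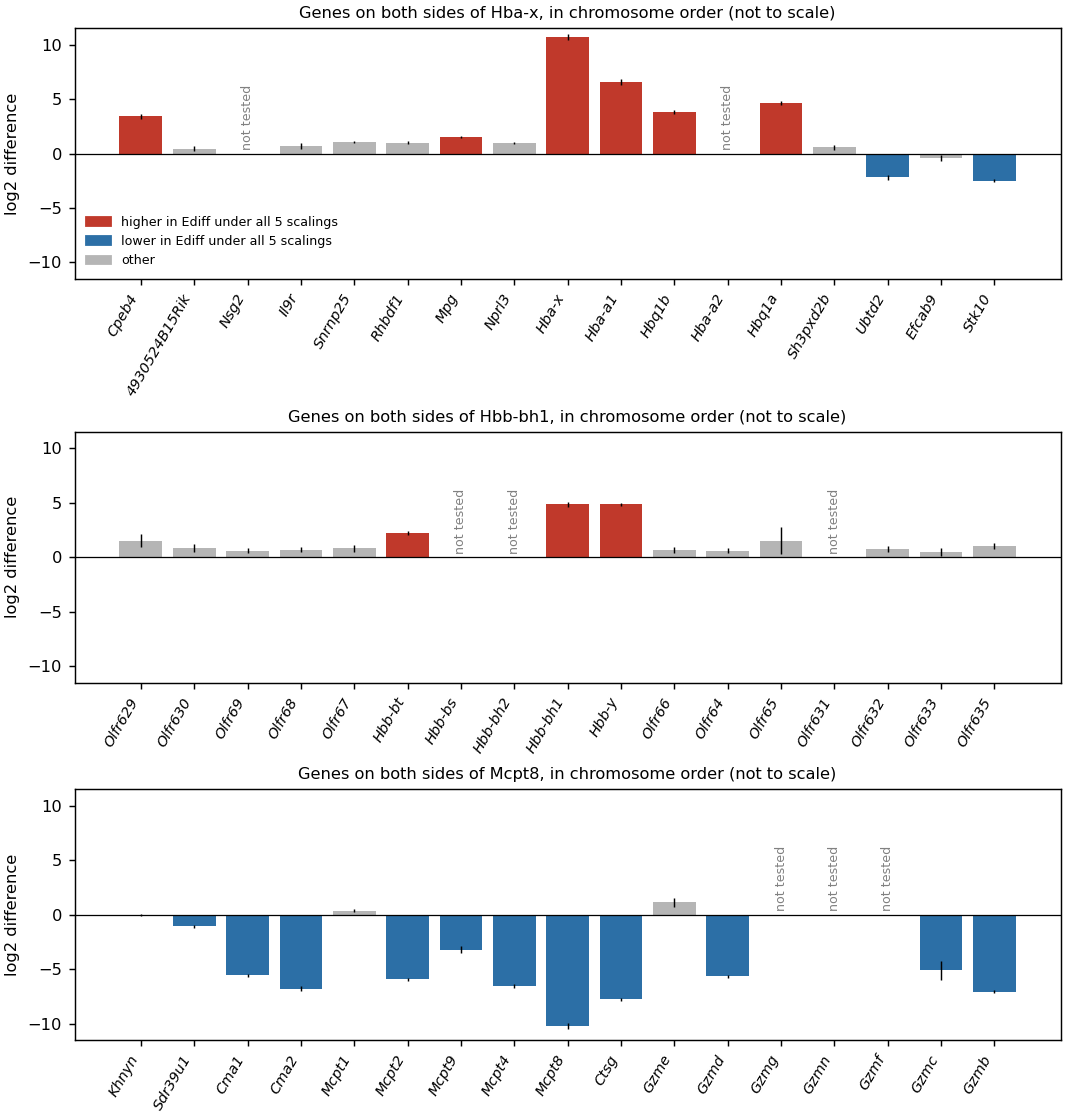
Log2 difference, Ediff minus EryCP repeat, with its standard error (vertical axis), for 8 genes on each side of Hba-x, Hbb-bh1 and Mcpt8 in chromosome order, not to scale. Red bars were higher and blue bars lower under all 5 scalings, and grey bars were neither. Hba-x (10.70) is the tallest bar of its panel, the olfactory receptor genes beside Hbb-bh1 are all grey, and most chymase and granzyme genes around Mcpt8 (-10.22) point down, with Mcpt1 and Gzme the exceptions among those tested.

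Most heme synthesis genes rose. Of 17 genes tested, 15 were higher and 1 was lower, with a median of 2.51, and 13 were higher under all 5 scalings. After Alas2, the largest rises were those of Tspo2, an erythroid membrane protein for sterol and porphyrin handling (4.35 ± 0.12), Cpox (3.63 ± 0.17) and Alad (3.54 ± 0.13), enzymes of the middle of the pathway. Alas1, the housekeeping form of the first enzyme, did not pass the test (0.22 ± 0.13, adjusted p = 0.192), and Pgrmc1, a heme-binding partner of ferrochelatase, differed by -0.31 ± 0.10 (adjusted p = 0.044), a call that was missed with median scaling (adjusted p = 0.0532). Of 8 genes of heme export and breakdown, 2 were higher and 1 was lower, with a median of 0.44. Blvrb, a biliverdin reductase of red cells, rose by 2.36 ± 0.16, the constitutive heme oxygenase Hmox2 fell by 0.50 ± 0.10, and the inducible Hmox1 was at 0.04 ± 0.13 (adjusted p = 0.791).

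Iron import genes rose as well. Slc25a37, which brings iron into mitochondria, rose by 4.16 ± 0.11 (adjusted p = 3.32e-06). Tfrc, the transferrin receptor, had levels of 6.33, 6.47 and 6.39 in Ediff against 3.90, 3.82 and 3.94 in EryCP repeat, groups that were tight and apart, and rose by 2.51 ± 0.09. The iron exporter Slc40a1 rose too, by 3.04 ± 0.20, while Trf, the gene of transferrin itself, fell by 4.09 ± 0.10. Ireb2, an iron sensor, did not pass the test (0.07 ± 0.14). Of 22 iron genes tested, 16 were higher and 2 lower (8 and 2 under all 5 scalings), with a median of 0.75.

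Genes of the red cell membrane skeleton were among the largest rises. Tmod1, which caps the short actin filaments of the skeleton, had levels of 0.58, 0.64 and 0.70 in Ediff and was not well above background on any EryCP repeat array, so that it was at least 145-fold higher. This bound sets the mean of Ediff against, on each EryCP repeat array, the lowest signal still called above background, or the probe's own if higher. Ank1, the ankyrin that ties spectrin to band 3, rose by 7.63 ± 0.17 with all 5 of its probes called higher, Sptb, the erythroid beta spectrin, by 7.10 ± 0.10 and Epb42, protein 4.2, by 6.33 ± 0.19. The 3 members that fell, named after their values were seen, were the tropomodulin gene Tmod3 (-1.31 ± 0.11), the adducin gene Add3 (-0.64 ± 0.12) and the tropomyosin gene Tpm3 (-1.33 ± 0.09), all lower under all 5 scalings. In all, 13 of 17 skeleton genes tested were higher and 3 lower, 10 and 3 of them under all 5 scalings, with a median of 1.87.

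Red cell surface genes rose beside the skeleton, 22 of 27 tested higher and 2 lower, 16 and 2 under all 5 scalings, with a median of 2.02. Rhd, the Rhesus antigen gene, had levels of 6.35, 6.40 and 6.18 in Ediff against -1.77, -1.61 and -0.51 in EryCP repeat, where the third array stood higher than the other 2, and the groups did not overlap. It rose by 7.61 ± 0.34 (adjusted p = 1.77e-05). Its partner Rhag rose by 4.67 ± 0.14 and the glycophorin gene Gypc by 4.57 ± 0.17. The nucleoside transporter Slc29a1 differed by 0.48 ± 0.08 (-0.46 with spike-in scaling) and the water and glycerol channel Aqp9 by 0.33 ± 0.14 (adjusted p = 0.0819).

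Of the 4 core erythroid factors, Klf1 and Zfpm1 rose under all 5 scalings and Gata1 and Tal1 did not. Klf1 stood at 5.84, 5.85 and 5.75 in Ediff and 2.67, 2.54 and 3.10 in EryCP repeat, a rise of 3.04 ± 0.16 (adjusted p = 3.41e-05). Zfpm1, the cofactor FOG1 of Gata1, rose by 1.63 ± 0.11 on levels of 7.21 to 7.23 against 5.42 to 5.70. Gata1 itself had 3.67, 3.70 and 3.69 in Ediff against 2.76, 2.73 and 2.71 in EryCP repeat. Its groups were apart and the difference was 0.95 ± 0.08 (adjusted p = 0.000226), but 0.01 with spike-in scaling (adjusted p = 0.956). Tal1 differed by 0.40 ± 0.10 with 75th percentile scaling, by -0.03 with quantile normalization and by -0.54 with spike-in scaling, so its direction is not settled. Nfe2, a regulator of globin genes, overlapped between the groups and did not pass the test (0.08 ± 0.12, adjusted p = 0.563). Larger rises were those of Klf3, a repressor that is itself switched on by Klf1, by 5.08 ± 0.13, Sox6 by 3.32 ± 0.10 and Bcl11a by 3.19 ± 0.24, the last a pair that silences embryonic beta-like globins in adult cells. Of 30 erythroid factors tested, 22 were higher and 4 lower, but 8 and 4 under all 5 scalings, with a median of 0.74.

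Several progenitor factors fell. Gata2, which precedes Gata1 in the lineage, was at 2.70, 3.21 and 2.82 in Ediff against 6.47, 6.20 and 6.51 in EryCP repeat, and fell by 3.48 ± 0.17 with the groups well apart. Myb fell by 2.21 ± 0.16, at 2.84 to 3.39 in Ediff against 5.23 to 5.39 in EryCP repeat. Id2, an inhibitor of helix-loop-helix factors, fell by 6.38 ± 0.18, the zinc finger factor Ikzf2 by 6.21 ± 0.13 on all 4 probes, and the ETS factor Fli1, a driver of megakaryocytes, by 4.62 ± 0.13. Erg, a related ETS factor, was not well above background on any Ediff array and was at least 4.92-fold lower by the processed signals. It differed by -1.42 on the log2 scale in the authors' deposited table and by 0.15 with normexp (adjusted p = 0.924), so its direction depended on the background correction. Spi1, the myeloid factor PU.1, was low in both groups, between -3.68 and -3.38 in Ediff and between -3.47 and -3.24 in EryCP repeat, and did not pass the test (-0.16 ± 0.13, adjusted p = 0.29). Myc was higher by 0.55 ± 0.16 with 75th percentile scaling and at -0.39 with spike-in scaling. Of 29 progenitor factors tested, 6 were called higher and 14 lower, 1 and 14 under all 5 scalings, with a median of -0.16.

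The Epo receptor gene rose, and among other cytokine receptors more were called lower than higher. Epor had levels of 5.89, 6.07 and 6.11 in Ediff against 2.85, 2.73 and 3.11 in EryCP repeat, and rose by 3.13 ± 0.13 (adjusted p = 1.48e-05). Some feedback genes that Stat5 switches on rose with it: Pim1, a kinase that supports survival, by 4.50 ± 0.11, Cish by 4.44 ± 0.11 and Socs2 by 4.04 ± 0.32, both inhibitors of cytokine receptors. The pseudokinase gene Trib3 rose by 4.11 ± 0.10. Sh2b3, the adaptor LNK that limits Epo signalling, and the kinase Pim2 did not pass the test (-0.19 ± 0.10 and -0.05 ± 0.10). Of 30 Epo signalling genes tested 12 were higher and 13 lower, 7 and 13 under all 5 scalings, so the list as a whole did not move one way (median -0.12). The 13 lower genes included Stat5a and Stat5b themselves, and Pim3, Dusp6, Spry4, Spred1 and Spred2. They are named here because they ran against the rises. Among 33 cytokine receptors, 7 were called higher and 16 lower, 4 and 16 under all 5 scalings, with a median of -0.32. The TGF-beta receptor Tgfbr2 fell by 4.52 ± 0.12, with 1 of its 2 probes called, and the IL-18 receptor Il18r1 by 4.45 ± 0.33, while Csf1r, the receptor of the macrophage growth factor, rose by 3.14 ± 0.12 on all 3 probes. The IL-4 receptor Il4ra was at -0.03 ± 0.12 (adjusted p = 0.844).

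**Figure D4:**
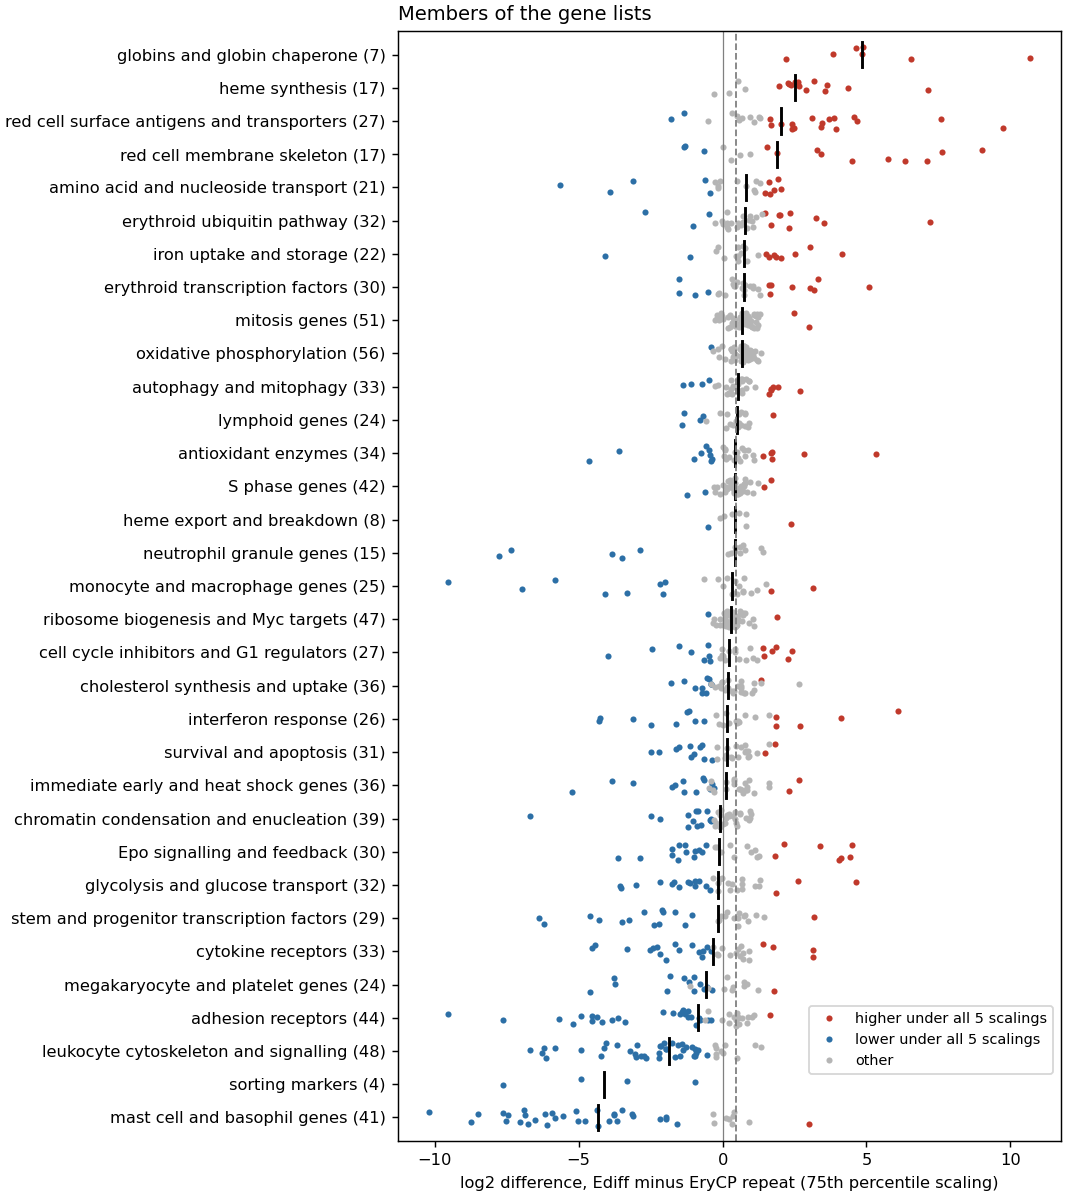
Log2 difference, Ediff minus EryCP repeat, of every tested member (points) of the 33 gene lists (rows, number tested in brackets), sorted by their median (black tick). The dashed line is the median of all genes, 0.45. Red points were higher and blue points lower under all 5 scalings. Red points gather in the top rows (globins, heme, red cell surface and skeleton) and blue points in the bottom rows (mast cell, leukocyte cytoskeleton, adhesion).

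The genes used to sort EML cells all fell. Ediff cells were collected without CD34 and cKit, so the falls of Cd34 and Kit were selected for and are a description. Kit, the receptor of stem cell factor, had levels of 1.19, 1.51 and 1.22 in Ediff and 4.66, 4.65 and 4.55 in EryCP repeat, a difference of -3.31 ± 0.12, so that its RNA remained above the 75th percentile of the Ediff arrays. Cd34 was not well above background on any Ediff array and was at least 78.03-fold lower there, with signals of -7.82 to -6.60 in Ediff and 0.06 to 0.59 in EryCP repeat. Itgae, the CD103 chain, fell by 4.93 ± 0.22, with -1.37, -2.22 and -1.62 in Ediff and 3.16, 3.27 and 3.14 in EryCP repeat. Ly6a, the Sca1 antigen, was low in both groups, at -4.77 to -4.15 against -3.54 to -3.41, and its difference of -0.96 ± 0.17 was 0.25 with another background correction (normexp).

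Mast cell and basophil genes had the lowest median of the 33 lists, with 2 of 41 tested called higher and 32 lower, 1 and 32 under all 5 scalings, and a median of -4.34. A further 2 members were on the array but did not pass the filter on dim probes. Mcpt8, a basophil protease, had levels of -5.57, -4.43 and -4.80 in Ediff, where it passed background on 2 of 3 arrays, against 5.29, 5.36 and 5.22 in EryCP repeat. The difference was -10.22 ± 0.29 (adjusted p = 3.82e-06). Hdc, the enzyme that makes histamine, fell by 7.47 ± 0.17, on levels of -1.57 to -1.12 in Ediff against 5.81 to 6.25 in EryCP repeat. The serotonin transporter Slc6a4 fell by 7.63 ± 0.13, the cytokine gene Il6 by 7.54 ± 0.13, and Hpgds, a prostaglandin D synthase, was at least 91.9-fold lower. Alox5 and Ltc4s, of leukotriene synthesis, did not pass the test (0.13 ± 0.28 and 0.23 ± 0.20). The 1 member that was higher under all 5 scalings was Tph1, the enzyme that starts serotonin synthesis, at 3.01 ± 0.17, named here because it ran against its list.

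Most genes beside Mcpt8 fell too. Taken by position, the chymase genes Cma1 (-5.55 ± 0.12), Cma2 (-6.78 ± 0.23), Mcpt2 (-5.93 ± 0.15), Mcpt9 (-3.22 ± 0.31) and Mcpt4 (-6.54 ± 0.18) on one side and the protease genes Ctsg (-7.76 ± 0.13), Gzmd (-5.67 ± 0.17), Gzmc (-5.09 ± 0.86) and Gzmb (-7.05 ± 0.13) on the other were all lower under all 5 scalings, though Mcpt9 stood at 0.38 with normexp (adjusted p = 0.812). Mcpt1 and Gzme, which lie among them, did not pass the test (0.36 ± 0.13 and 1.14 ± 0.41), and neither did Khnyn at the outer edge (-0.03 ± 0.09). These proteases are near copies of each other, and probes of the family may share signal. Sdr39u1, which lies between Khnyn and Cma1, was also lower under all 5 scalings (-1.07 ± 0.10). Gzmg, Gzmn and Gzmf, also beside Mcpt8, were not tested.

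Lists of other lineages held genes called in both directions. In none of them did the share called higher exceed that of all genes (39.8%). The share called lower exceeded that of all genes (16.8%) except in the lymphoid list, where it was near it. Neutrophil granule genes had 4 of 15 tested called higher and 5 lower, none and 5 under all 5 scalings, with a median of 0.43. Ctsg and Mpo, the myeloperoxidase gene, fell by 7.76 ± 0.13 and 7.35 ± 0.15, whereas the proteinase Prtn3 and the ficolin Fcnb did not pass the test (0.20 ± 0.35 and 0.29 ± 0.24). Of 25 monocyte and macrophage genes, 8 were called higher and 8 lower, 2 and 8 under all 5 scalings. The falls were led by the chemokine receptor Ccr2, at least 203-fold lower, the adaptor Tyrobp (-6.96 ± 0.10), the Fc receptor Fcgr3 (-5.84 ± 0.12) and the lysozyme Lyz2 (-4.10 ± 0.31). Of 24 megakaryocyte and platelet genes, 5 were called higher and 13 lower, 1 and 13 under all 5 scalings, with a median of -0.59. Fli1 led the falls, then Rab27b (-3.77 ± 0.13) and the platelet chemokine Ppbp (-3.73 ± 0.44). Lymphoid genes were dim in both groups, with array medians of -3.19 to -2.64 in Ediff and -3.38 to -2.78 in EryCP repeat, and of 24 tested 9 were called higher and 4 lower, 1 and 4 under all 5 scalings. The probes of the IL-7 receptor gene Il7r were called in both directions, so no direction is given for it, although its brighter probe is the 1 counted as higher.

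Leukocyte cytoskeleton genes fell broadly. Of 48 cytoskeleton and signalling genes tested, 2 were called higher and 38 lower, none and 38 under all 5 scalings, with a median of -1.86. Vim, the vimentin filament, fell by 6.69 ± 0.18 and Ptprc, the pan-leukocyte antigen CD45, by 6.27 ± 0.11 on all 3 probes. The actin monomer binder Tmsb4x stood at -6.22 ± 0.15 and the annexin Anxa1 at -6.13 ± 0.30. Adhesion receptors had 7 of 44 called higher and 26 lower, 1 and 26 under all 5 scalings, with a median of -0.86. The tetraspanin Cd53 fell by 5.69 ± 0.19 and Cd93 by 5.21 ± 0.25, while the integrin chain Itga1 differed by -0.02 ± 0.30 and the junction protein gene Jam3 by 0.22 ± 0.30, neither past the test.

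Mitosis and S phase genes were mostly called higher with 75th percentile scaling, where 39.8% of all genes were called higher and 16.8% lower, but few were higher under all 5 scalings. Mki67, the proliferation antigen, had levels of 7.01, 7.25 and 7.20 in Ediff against 6.10, 5.98 and 6.07 in EryCP repeat and differed by 1.10 ± 0.10 with 75th percentile scaling and by 0.16 with spike-in scaling (adjusted p = 0.437). Of 51 mitosis genes, 40 were called higher and none lower, with a median of 0.69, but 2 were higher under all 5 scalings, the phosphatase Cdc25b (2.99 ± 0.11) and the ubiquitin enzyme Ube2c of the anaphase complex (2.48 ± 0.09). Of 42 S phase genes, 26 were higher and 2 lower, with a median of 0.45, equal to that of all genes, and 2 were higher under all 5 scalings, the cyclin Ccne1 (1.69 ± 0.12) and the clamp loader subunit Rfc4 (1.45 ± 0.13). The chromatin remodeller Hells fell by 1.23 ± 0.13, and the helicase subunit Mcm6 was at 0.03 ± 0.12. Among G1 regulators, the cyclin Ccnd1 fell by 3.99 ± 0.21 and the kinase Cdk6 by 2.44 ± 0.09, while the antiproliferative genes Btg2 and Gadd45a rose by 2.42 ± 0.09 and 2.27 ± 0.12. Cdk4, the sister kinase of Cdk6, differed by 0.02 ± 0.09. On that list 11 of 27 were called higher and 8 lower, 6 and 8 under all 5 scalings.

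Genes for chromatin condensation and loss of the nucleus did not rise as a list: of 39 tested, 11 were called higher and 14 lower, none and 14 under all 5 scalings, with a median of -0.09. The GTPase Rac1 fell by 2.19 ± 0.12, with 1 of its 2 probes called. Xpo7, a nuclear exporter of maturing red cells, differed by 0.37 ± 0.08 with 75th percentile scaling and by -0.57 with spike-in scaling. Of 31 survival genes, 14 were called higher and 11 lower, 2 and 11 under all 5 scalings, with a median of 0.15. Casp8 fell by 2.21 ± 0.10, while Bcl2l1, the survival factor BCL-XL that Epo induces, rose by 1.83 ± 0.11 on all 3 probes, at 1.59, 1.84 and 1.70 in Ediff against 0.00, -0.22 and -0.14 in EryCP repeat. Foxo3, a regulator of erythroid maturation, had -1.97, -1.98 and -1.94 in Ediff and -3.37, -2.34 and -3.34 in EryCP repeat, where the second array stood apart from the other 2. It differed by 1.05 ± 0.29 with 75th percentile scaling, by 0.39 and 1.37 within the slides, and by 0.11 with spike-in scaling.

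Genes that clear organelles and proteins were mixed. Bnip3l, the mitochondrial clearance receptor NIX, differed by 0.82 ± 0.10 with 75th percentile scaling and by -0.13 with spike-in scaling (adjusted p = 0.474). The lysosomal protein gene Lamp1 rose by 2.70 ± 0.14, and the autophagy genes Wipi2 by 1.91 ± 0.11, Atg4a by 1.76 ± 0.13 and Atg4b by 1.70 ± 0.10. Of 33 autophagy genes, 21 were called higher and 4 lower, 6 and 4 under all 5 scalings, with a median of 0.54. On the ubiquitin list, Trim10, a RING protein of red cell precursors, was at 4.26, 4.36 and 4.18 in Ediff and at -3.38, -2.64 and -2.77 in EryCP repeat, a rise of 7.20 ± 0.21. The ubiquitin-like conjugating enzyme Ube2l6 rose by 3.52 ± 0.24 and Ubac1 by 3.25 ± 0.11, while the ligase Nedd4l fell by 2.71 ± 0.14. There 22 of 32 were called higher and 4 lower, 9 and 3 under all 5 scalings, with a median of 0.79.

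Glycolysis and glucose transport had 11 of 32 genes called higher and 14 lower, 3 and 14 under all 5 scalings, with a median of -0.15. The glucose transporter Slc2a4 rose by 4.64 ± 0.15, while hexokinase Hk2 fell by 3.58 ± 0.12 and Pkm, the common pyruvate kinase, by 3.54 ± 0.17. Bpgm, the red cell enzyme for bisphosphoglycerate, did not pass the test (-0.10 ± 0.09), with 1 of its 2 probes called higher. Of 56 oxidative phosphorylation genes, 46 were called higher and 1 lower, with a median of 0.69, against 0.45 for all genes. The median was -0.26 with spike-in scaling, against -0.49 for all genes, and none was higher under all 5 scalings. Ndufa5, the member with the largest rise, differed by 1.33 ± 0.12 and by 0.39 with spike-in scaling.

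Among antioxidant enzymes, 17 of 34 were called higher and 9 lower, 6 and 9 under all 5 scalings. The microsomal transferase Mgst3 rose by 5.34 ± 0.16 and the abundant red cell peroxiredoxin Prdx2 by 2.85 ± 0.12 on all 3 probes, whereas Mgst2 fell by 4.63 ± 0.14, fitted on 2 of 3 EryCP repeat arrays, and the selenoprotein gene Selenop by 3.59 ± 0.13. Prdx1 was at 0.01 ± 0.15. Amino acid and nucleoside transporters had 12 of 21 called higher and 5 lower, 6 and 5 under all 5 scalings, with Slc43a1 up by 2.02 ± 0.12, Slc7a8 down by 5.66 ± 0.09 and Slc7a6 down by 3.12 ± 0.17. Ribosome biogenesis and Myc targets had 23 of 47 called higher and 1 lower, 1 of each under all 5 scalings, and a median of 0.29. The 1 higher under all 5 was Odc1, the first enzyme of polyamine synthesis, at 1.88 ± 0.10. Cholesterol genes had 15 of 36 called higher and 10 lower, 1 and 10 under all 5 scalings, and a median of 0.18. The sterol exporter Abca1 differed by -1.78 ± 0.22, but by 0.016 with normexp (adjusted p = 0.992), and the fatty acid synthase Fasn by -0.03 ± 0.15.

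Stimulus genes split. Of 36 immediate early and heat shock genes, 15 were called higher and 13 lower, 2 and 13 under all 5 scalings. Ier3 fell by 5.23 ± 0.16, the phosphatase Dusp2 by 3.83 ± 0.14 and Egr2 by 3.10 ± 0.20, while Jun rose by 2.64 ± 0.22. Of 26 interferon response genes, 10 were called higher and 9 lower, 5 and 9 under all 5 scalings, with a median of 0.16. Oasl2, of the oligoadenylate synthetase family, was not well above background on any EryCP repeat array and was at least 45.4-fold higher, and the antiviral gene Rsad2 at least 13.8-fold higher, with 1 of its 3 probes called. Their differences were 2.78 and 1.64 on the log2 scale in the authors' deposited table, and 1.503 and 1.012 with normexp (adjusted p = 0.797 for both). The immunoproteasome subunit Psmb8 fell by 4.30 ± 0.11 and Ifitm1 by 4.25 ± 0.15.

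Many called genes lay outside the lists. Tent5c, a poly(A) polymerase, had levels of 2.42, 2.27 and 2.24 in Ediff against -6.75, -6.75 and -6.31 in EryCP repeat, where it passed background on 1 of 3 arrays, and the difference was 8.91 ± 0.15, against 6.12 in the authors' deposited table and 3.89 with normexp (adjusted p = 0.0751). Dusp8, a phosphatase of stress kinases, had levels of 0.90 to 0.94 in Ediff and of -8.20 to -5.83 in EryCP repeat, where it also passed background on 1 of 3 arrays. Its difference of 8.26 ± 0.62 was 4.401 in the authors' deposited table and 2.43 with normexp (adjusted p = 0.274). For both genes the size rests on signals near background, and their place among other changes is not given. The G protein subunit gene Gng13 rose by 7.19 ± 0.11, the exchange factor gene Rab3il1 by 7.13 ± 0.18, Apol10b by 6.81 ± 0.14 and the sialyltransferase St3gal6 by 6.78 ± 0.13. Cyp4b1, a cytochrome P450, was at least 221-fold higher, and Slfn14, a ribosome-linked nuclease of erythroid and platelet precursors, at least 23.7-fold higher. On the falling side, the 3 serpins of the Serpinb1 family fell together, with differences of -8.47 ± 0.30 for Serpinb1c, -8.10 ± 0.16 for Serpinb1b and -7.92 ± 0.14 for Serpinb1a, the last at -0.67, -0.29 and -0.53 in Ediff against 7.49, 7.54 and 7.25 in EryCP repeat. The 3 are near copies, and their probes may share signal. Gem, a small GTPase, differed by -8.12 ± 0.32, Plac8 by -7.54 ± 0.19, Nkg7, of cytotoxic granules, by -7.52 ± 0.10, and Cd52 by -7.31 ± 0.13. Serpinb1b passed background on 1 of 3 Ediff arrays and Gem on 2 of 3. Serpinb1b differed by -5.99 in the authors' deposited table and by -3.53 with normexp (adjusted p = 0.0845). The succinate receptor Sucnr1 was at least 202-fold lower, the adaptor Stap1 at least 210-fold lower and the cadherin Cdh17 at least 51.6-fold lower.

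The other Epo samples of the series gave fewer calls. In CD34- CD103- Epo against CD34- CD103- cells, on separate arrays, 658 of 27292 genes were called (2.41%). The difference between the 2 responses, Ediff minus EryCP repeat less CD34- CD103- Epo minus CD34- CD103-, was tested itself over 13 arrays, and 10323 genes were called (37.8%), 6434 with the higher response in Ediff and 3889 with the lower. With spike-in scaling the balance turned round, with 1037 higher and 7101 lower, and the median of all genes was -0.36, against 0.37 with 75th percentile scaling. In this fit 16326 of the 27292 genes (59.8%) were called for Ediff against EryCP repeat. Of the genes called in each response, 546 were shared, 3.34% of those of Ediff and 83% of those of CD34- CD103- Epo. Of these, 338 had the same sign in both and 208 the opposite sign. The size of the typical response, as the median absolute log2 difference, was 0.62 in Ediff and 0.16 in CD34- CD103- Epo.

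The marker genes differed between the responses. In CD34- CD103- Epo, Hba-x had levels of -5.30, -5.23 and -4.89, against -4.73, -5.47, -5.18 and -5.52 in CD34- CD103- cells, groups that overlapped (0.09 ± 0.25, adjusted p = 0.916). Its responses differed by 10.61 ± 0.37 (adjusted p = 1.77e-09). Slc4a1 also overlapped there (0.09 ± 0.15), as did Alas2 (-0.30 ± 0.12, adjusted p = 0.255), and their responses differed by 9.65 ± 0.21 and 7.46 ± 0.18. Cpa3 remained high, at 7.91 to 8.05 in CD34- CD103- Epo against 8.07 to 8.20 in CD34- CD103- cells, and its response differed from that in Ediff by -8.61 ± 0.21.

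Klf1 rose in Ediff and fell in CD34- CD103- Epo, whereas the opposite signs of Gata1 depended on the scaling, since its Ediff difference was 0.01 with spike-in scaling (adjusted p = 0.956). Klf1 was lower in CD34- CD103- Epo by 0.82 ± 0.18 (adjusted p = 0.0411) and Gata1 by 0.68 ± 0.12 (adjusted p = 0.0123), with all Gata1 levels, 0.13 to 0.38, under those of CD34- CD103- cells, 0.68 to 1.14. The responses differed by 3.86 ± 0.27 for Klf1 and by 1.63 ± 0.17 for Gata1. Hdc moved the same way in both, by -2.55 ± 0.14 in CD34- CD103- Epo (adjusted p = 2.56e-06), though less far, with a difference of -4.92 ± 0.20 between the responses. Ly6a fell by nearly equal amounts, by 1.03 ± 0.20 in CD34- CD103- Epo, with a difference of 0.07 ± 0.29 between the responses (adjusted p = 0.86). Itgae did not pass the test in CD34- CD103- Epo (-0.50 ± 0.17, adjusted p = 0.177). Whether CD34- CD103- Epo cells were collected by surface markers after Epo is not stated by any source used here. A difference in collection and a difference between the starting cells therefore cannot be told apart. The starting cells were on separate arrays, and their levels were not tested against each other. Mean levels in CD34- CD103- cells and EryCP repeat were 5.05 and 0.31 for Cd34, and 3.24 and -3.49 for Ly6a. They were 0.01 and 2.77 for Klf1, and -4.03 and 0.20 for Alas2. Kit (4.55 and 4.62) and Tfrc (3.87 and 3.88) were close. Cd34 RNA was thus high in cells named CD34-, and stood at 5.75 after Epo.

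**Figure D5:**
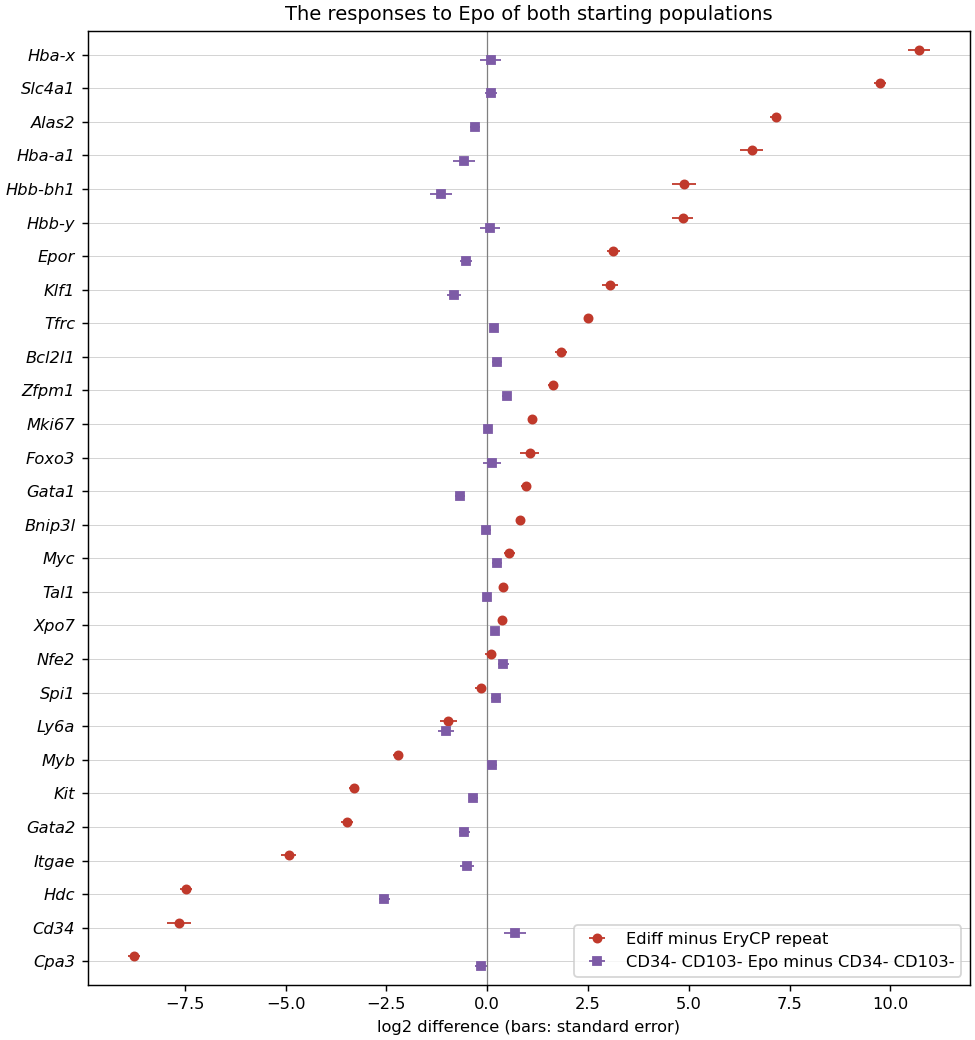
Log2 difference with its standard error (horizontal axis) for 28 genes (rows), in Ediff minus EryCP repeat (red circles, 3 arrays each) and in CD34- CD103- Epo minus CD34- CD103- (violet squares, 3 and 4 arrays). The globin genes, Slc4a1 and Alas2 lie far right of 0 for Ediff and near or left of 0 for CD34- CD103- Epo (Hba-x at 10.70 and 0.09), and Ly6a lies close to -1 in both (-0.96 and -1.03). Ly6a was low in both Ediff and EryCP repeat.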

How the data were processed

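RNA of 26 samples in 8 groups was hybridised with Cy3 to 1-colour Agilent arrays in 3 sets, and 6 arrays of the second set, on 2 slides, were compared here. Per the file headers, the deposited intensity of each spot is the processed signal of Agilent Feature Extraction 10.1.1.1 (10.7.1.1 in the third set), after background subtraction and spatial detrending, with no scaling between arrays. The authors' deposited table holds log2 values whose scaling and centring no source used here states. Its columns correlated with the log2 processed signal at r between 0.971 and 0.977, and their medians were 7.09 to 7.11 for Ediff and 7.17 to 7.19 for EryCP repeat.

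Control spots (1639) and 129 to 209 spots per array that the software marked as outliers were dropped, then repeat spots of each probe were averaged. The 75th percentile of an array was taken over all its non-control spots, outliers included. The log2 signal minus the 75th percentile of the array was tested with limma 3.58.1 in R 4.3.3 (lmFit and eBayes, no covariates), with Benjamini-Hochberg adjustment over all genes and a threshold of 0.05. A probe was kept when well above background on every array of at least 1 group and measured on at least 2 arrays per group, and each gene took its brightest probe on average. Of 41174 probes, 14103 had no symbol. For genes below background in a group, a bound replaces the fold change. The script was tested on simulated data. The number of arrays limits the precision. Spike-in scaling used 9 probes. Other alternatives were quantile, median and normexp settings (the last on median signals, offset 50), the deposited table, other filters, slide as a block, the mean over probes, another variance model, a fit on all 26 arrays, and each array left out in turn. Median scaling was chosen after seeing the data.

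Genes were named by a rule: 30 fixed genes, the 15 largest rises and the 15 largest falls, the 8 largest bounds each way, and, per list, the 4 called members with the largest differences and up to 2 nearest to 0. Neighbours on the chromosome are outside it. Some genes the rule names are not reported here. The genes, lists and tests were chosen with earlier results of these data known. Replicates were numbered in accession order.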

Additional observations from a re-analysis of the deposited data

Results flagged for a closer look

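For 23 of the 28 genes compared between the responses, the test of the difference itself passed the threshold (limma, adjusted over all genes, 13 arrays). Each value is the log2 response of Ediff over EryCP repeat minus that of CD34- CD103- Epo over CD34- CD103-. The globin genes gave 10.61 for Hba-x, 7.14 for Hba-a1, 6.03 for Hbb-bh1 and 4.79 for Hbb-y. Other genes of the red cell gave 9.65 for Slc4a1, 7.46 for Alas2, 3.65 for Epor and 2.35 for Tfrc. Transcription factors gave 3.86 for Klf1, 1.63 for Gata1, 1.14 for Zfpm1, 0.94 for Foxo3 and 0.40 for Tal1, with -2.91 for Gata2 and -2.34 for Myb. The value of Tal1 was -0.32 with spike-in scaling. The survival, clearance and division genes Bcl2l1, Bnip3l and Mki67 gave 1.59, 0.84 and 1.09. Mast cell and sorting marker genes gave -8.61 for Cpa3, -8.34 for Cd34, -4.92 for Hdc, -4.43 for Itgae and -2.96 for Kit. Cd34 was not well above background in Ediff, so its value is no bound, and Ediff was collected without CD34 and cKit. The remaining 5 genes, Ly6a, Myc, Nfe2, Spi1 and Xpo7, did not pass the test.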

How the results depend on the processing

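No paired analysis was possible because the titles number the samples so that the groups share no replicate numbers. Slide, which both groups share, was fitted as a block and gave 16518 called genes, against 13982 without it. Leaving out each array in turn gave 9797 to 17113 called genes, 6394 to 12594 higher and 3403 to 4519 lower, the lowest count of higher genes without EryCP repeat replicate 1, and 8593 to 12868 genes for the difference between the responses. Spike-in scaling called 1054 genes higher and 11049 lower, and normexp, with a median standard error of 0.52, called 235, 57 higher and 178 lower. With spike-in scaling these differences turned negative: Actb -0.92, Alas1 -0.72, Aqp9 -0.62, Bnip3l -0.13, Cdk4 -0.92, Hmox1 -0.90, Ireb2 -0.88, Ltc4s -0.71, Mcm6 -0.92, Mcpt1 -0.58, Myc -0.39, Nfe2 -0.86, Prdx1 -0.94, Slc29a1 -0.46, Tal1 -0.54, Xpo7 -0.57 and, between the responses, Tal1 -0.32. So did the medians of cholesterol (-0.76), heme export (-0.50), iron (-0.20), monocyte (-0.63), autophagy (-0.41), mitosis (-0.26), survival (-0.79), oxidative phosphorylation (-0.26), interferon (-0.78), erythroid factor (-0.20), lymphoid (-0.45), ribosome (-0.65), G1 regulator (-0.73), neutrophil (-0.52), antioxidant (-0.50), S phase (-0.50), ubiquitin (-0.15) and amino acid transport (-0.12) genes. With quantile normalization, Cdk4 (-0.29), Mcm6 (-0.58), Prdx1 (-0.34), Tal1 (-0.029) and the medians of monocyte (-0.028), survival (-0.057), interferon (-0.0072) and antioxidant (-0.0020) genes turned. With normexp, Abca1 (0.016), Erg (0.15), Ly6a (0.25), Mcpt9 (0.38) and the medians of cholesterol (-0.0073), cytokine receptor (0.037), Epo signalling (0.21) and progenitor factor (0.15) genes turned. The deposited table turned Mcm6 (-0.50) and the medians of monocyte (-0.041) and neutrophil (-0.013) genes, median scaling those of survival (-0.027) and interferon (-0.014) genes, the mean over probes Bpgm (0.26), Il7r (-0.97) and the interferon median (-0.054), and slide 2 alone the monocyte median (-0.26). The cause was not tested. Of the comparisons of gene differences with an alternative, 126 no longer passed the threshold and 21 passed it only under the alternative. Another 27 turned direction with a call in at least 1 of the fits, and 3204 did none of these. The 3204 include differences that turned direction without a call in either fit. Within a slide, which has no test, only the directions of called genes were compared.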
